A study of Mus musculus with 9 samples.

Results

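The Cyp1 family holds 3 genes in mouse, Cyp1a1 (gene ID 13076), Cyp1a2 (gene ID 13077) and Cyp1b1 (gene ID 13078). They were taken by gene symbol from deposited RNA-seq tables that list 28932 genes with a gene ID, and they account for 12 of 189660 transcript rows. Transcript levels were measured in a mouse hepatoma line, whose source label reads Hepa 1 WT cells and whose cell line label reads HC1C. The 3 groups held 3 libraries each, and each group was sampled at 6 h. One group received 10 nM FICZ, another 50 uM tryptamine, and the third served as control, which 1 label calls untreated and the treatment protocol a vehicle control. Nothing in the labels says whether the libraries of a group came from separate cultures, so the p-values measure only the spread between these libraries, which may be technical.

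The CYP1 proteins are heme-containing monooxygenases of the endoplasmic reticulum that receive electrons from P450 reductase. CYP1A1 oxidises polycyclic aromatic hydrocarbons and clears FICZ itself, CYP1A2 is the main liver form in adult animals and oxidises aromatic amines and caffeine, and CYP1B1 oxidises oestradiol and polycyclic aromatic hydrocarbons and is best known from tissues outside the liver. All are classical targets of the aryl hydrocarbon receptor (AhR), which waits in the cytosol with HSP90 and p23, enters the nucleus once a ligand binds, and pairs there with ARNT on DNA that carries the core GCGTG. FICZ, a photoproduct of tryptophan, is a high-affinity AhR ligand. Tryptamine is the amine made from tryptophan by decarboxylation, and monoamine oxidases convert it to indole-3-acetaldehyde. The series title describes its activation of the AhR pathway as dependent on these oxidases.

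Cyp1a1 and Cyp1a2 lie next to each other on chromosome 9 in opposite orientation, with 13958 bases between the starts used here. Cyp1b1 lies on chromosome 17. A second GENCODE transcript of Cyp1a1 starts 9685 bases upstream of the main one, and the bases before that start are not shown. The 250 bases before each start used are shown because the 3 genes are set side by side throughout and these windows differ in the motifs they hold. All 3 genes matched a RefSeq promoter entry of build GRCm38.p6. The windows are chr9:57697363-57697612 (plus strand) for Cyp1a1, chr9:57683656-57683905 (minus strand) for Cyp1a2 and chr17:79715062-79715311 (minus strand) for Cyp1b1. Each is written 5′ to 3′ on the strand of its gene, with capitals for matches to GCGTG and TATAAA on either strand.
Cyp1a1: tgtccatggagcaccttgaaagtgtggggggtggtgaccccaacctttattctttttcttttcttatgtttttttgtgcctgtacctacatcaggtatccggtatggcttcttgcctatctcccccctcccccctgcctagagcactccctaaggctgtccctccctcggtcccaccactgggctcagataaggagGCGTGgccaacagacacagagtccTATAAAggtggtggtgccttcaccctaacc
Cyp1a2: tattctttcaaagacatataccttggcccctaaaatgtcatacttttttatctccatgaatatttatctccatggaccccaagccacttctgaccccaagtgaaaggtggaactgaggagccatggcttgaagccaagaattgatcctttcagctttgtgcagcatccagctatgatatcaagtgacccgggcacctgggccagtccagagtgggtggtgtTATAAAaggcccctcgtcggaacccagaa
Cyp1b1: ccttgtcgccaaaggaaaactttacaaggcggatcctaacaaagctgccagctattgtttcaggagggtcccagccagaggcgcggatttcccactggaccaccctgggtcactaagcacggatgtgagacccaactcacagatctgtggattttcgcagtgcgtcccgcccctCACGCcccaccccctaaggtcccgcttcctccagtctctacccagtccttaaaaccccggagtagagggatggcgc

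The AhR core GCGTG occurred once in the Cyp1a1 window, 54 bases before the start, and once in the Cyp1b1 window on the opposite strand, 76 bases before the start, where it reads CACGC. It was not among the letters of the Cyp1a2 window. The TATA motif TATAAA stood 30 bases before the Cyp1a1 start and 29 bases before the Cyp1a2 start and was not in the Cyp1b1 window. Matches of GCGTG were found in 28.2% of 32851 RefSeq promoter windows of this length, and of TATAAA in 12.4%, on either strand, so each is a common string. The 2 motifs did not overlap. The well-studied AhR sites of the mouse Cyp1a1 enhancer lie further upstream than this window.

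The libraries held 11594782 to 16715842 counts over genes. Control replicate 3 stood apart, with a correlation across genes of log2 CPM (counts scaled to a common library size) of 0.959 to 0.965 with the other 8 libraries, among which the lowest correlation was 0.99. Against the mean of control replicates 1 and 2, its median log2 difference was 0.61 for 1150 genes with transcripts of up to 1000 nt and -0.84 for 1320 genes with transcripts over 6000 nt. The common spread between replicates (edgeR's common dispersion, as a square root) was 0.156 over all 9 libraries and 0.0748 over the other 8, so the changes of the 3 members are given both ways. Of 9 hepatocyte markers, 6 averaged at least 1 CPM in each group, with summed levels of 4395 to 4552 CPM with FICZ, 4623 to 4813 with tryptamine and 4865 to 6749 in control, and Ttr, Apoa1 and Hnf4a had no count in any library. Markers of fibroblasts summed to 1537 to 1668, 1547 to 1698 and 1337 to 1619 CPM in these groups with Lum at 0, those of bile duct to 931.3 to 988.7, 896.8 to 991.6 and 993.2 to 1391 CPM with Epcam at 0, and those of blood and endothelium to at most 5.712 CPM with Adgre1 and Cdh5 at 0. Few genes carried most of the hepatocyte, fibroblast and bile duct sums. With FICZ, Krt8 and Krt18 averaged 1770 and 1900 CPM, against 212 for Alb and 450 for Trf. Col1a1 averaged 1250 CPM and Dcn 313, but Col1a2 was at 0. Krt7 averaged 877 CPM and Sox9 79.8, but Krt19 only 1.43. In bulk RNA, fewer cells of a type and less RNA per cell cannot be told apart.

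Cyp1a1 was the highest member in every library. Its highest transcript row, the RefSeq transcript NM_001136059 of 2619 nt, had 14368, 17383 and 13915 counts with FICZ, 9913, 8823 and 11681 counts with tryptamine, and 944, 805 and 683 counts in control. Scaled to library size this was 1022, 1035 and 951.1 CPM with FICZ, 674.3, 681.5 and 753.8 CPM with tryptamine, and 63.85, 55.37 and 58.27 CPM in control. The 3 groups did not overlap, and control replicate 3 lay between the other controls. Ranked by CPM per kb of transcript among the genes with a count, Cyp1a1 stood at places 99 to 112 with FICZ and 164 to 201 with tryptamine, against places 3704 to 4163 in control. Cyp1a1 was thus readily detected in control cells, and its control level rests on 683 counts or more per library.

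Cyp1b1 followed at a much lower level. Its RefSeq transcript NM_009994 of 5128 nt had 213, 241 and 204 counts with FICZ, 167, 119 and 229 counts with tryptamine, and 74, 72 and 34 counts in control. These are 15.15, 14.35 and 13.94 CPM with FICZ, 11.36, 9.192 and 14.78 CPM with tryptamine, and 5.005, 4.953 and 2.9 CPM in control. Each treated library lay above each control library, while the FICZ and tryptamine libraries overlapped. The coefficient of variation was 4.25% with FICZ, 23.9% with tryptamine and 28.0% in control, where counting error alone gives 6.75%, 7.63% and 12.9% in these groups.

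Cyp1a2 was close to the limit of detection. Its RefSeq transcript NM_009993 of 1892 nt had 32, 20 and 11 counts with FICZ, 17, 25 and 9 counts with tryptamine, and 0, 0 and 1 count in control. In the FICZ libraries this made 2.277, 1.191 and 0.7519 CPM, and in the tryptamine libraries 1.156, 1.931 and 0.5808 CPM. The control libraries at 0 allow up to 0.203 and 0.206 CPM each, taking 3 counts as the limit that a count of 0 allows. With FICZ, 95% Poisson intervals ran from 21.9 to 45.2 counts for replicate 1 and from 5.49 to 19.7 for replicate 3, which do not overlap. With tryptamine they ran from 16.2 to 36.9 counts for replicate 2 and from 4.12 to 17.1 for replicate 3, which overlap. These intervals hold counting error alone, because they are computed from the counts as Poisson limits. No identifiers that mark separate molecules were used here, so repeated copies of a molecule may be among the counts. Whether these few reads came from all cells or a small share of them cannot be seen in bulk RNA.

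**Figure D1:**
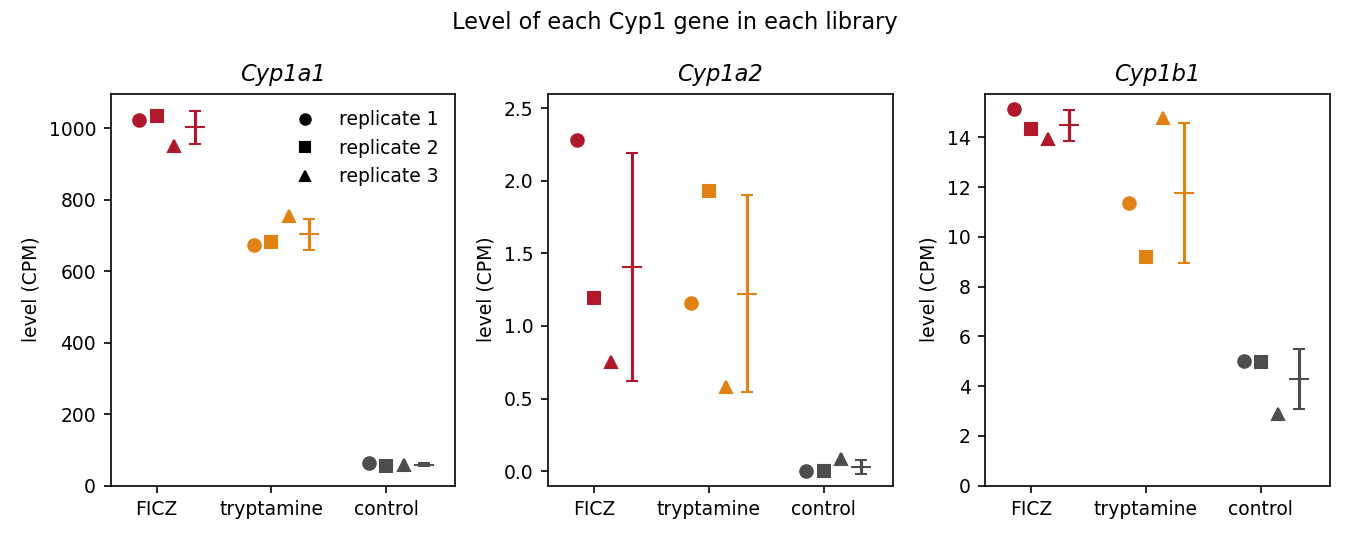
Level of Cyp1a1, Cyp1a2 and Cyp1b1 in CPM (vertical axes, linear, one scale per gene) in each of the 9 libraries, by group; symbols mark the replicate number, and the bar beside each group is the mean ± SD of 3 libraries. All treated libraries lie above all control libraries for each gene, as for 8.22% of the genes tested with FICZ and 5.19% with tryptamine. Cyp1a2 met the filter on low counts only through treated libraries. FICZ lies above tryptamine without overlap for Cyp1a1, at 951.1 CPM or more against 753.8 CPM or less, as for 5.46% of the genes tested.

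Per kb of transcript, the order of levels was Cyp1a1, Cyp1b1 and Cyp1a2 in every group. With FICZ the levels were 383 ± 17.3, 2.82 ± 0.12 and 0.743 ± 0.415 CPM per kb (SD, n = 3 each). With tryptamine they were 269 ± 16.8, 2.3 ± 0.549 and 0.646 ± 0.358 CPM per kb (SD, n = 3 each). Control cells had 22.6 ± 1.65 CPM per kb of Cyp1a1, 0.836 ± 0.234 of Cyp1b1 and 0.015 ± 0.026 of Cyp1a2 (SD, n = 3 each). Neighbours in this order did not overlap between libraries in any group. The level of Cyp1a1 per kb was 136 times that of Cyp1b1 with FICZ and 117 times with tryptamine, against 27 times in control.

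FICZ was compared with control to see what 6 h of a direct AhR ligand did to the family. Cyp1a1 rose 16.9-fold, with a 95% interval of 14.5 to 19.8, and Cyp1b1 rose 3.35-fold, with an interval of 2.34 to 4.79. Cyp1a2 was higher in 3 of 3 FICZ libraries, at a total of 63 counts against 1 count in control, and did not pass with all 9 libraries. Rose, fell and passed are used for a Benjamini-Hochberg adjusted p under 0.05 over all 12372 genes tested in edgeR's quasi-likelihood test. In log2 units the change of Cyp1a1 was 4.08 ± 0.101 (SE, adjusted p = 5.03e-09) and that of Cyp1b1 1.74 ± 0.234 (SE, adjusted p = 0.0224). Thus 2 of 3 members passed, where 0.113% of the genes tested were called higher, and Cyp1a1 and Cyp1b1 had no overlap between FICZ and control libraries, as did 8.22% of the genes tested. The libraries of Cyp1a2 did not overlap either, but it met the filter on low counts only through treated libraries, so this adds no separate support.

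All 3 members were kept by the filter on low counts. Cyp1a2 met it through its treated libraries alone and so had to exceed control in some of them to be tested at all. Its adjusted p was 0.118 with all 9 libraries and 0.00553 without control replicate 3, the library that held the single control count. The ratio of its summed counts to control, scaled to depth, was 56.9, with a 95% counting interval of 9.84 to 2280, and the fitted log2 value of 5.41 depends on the prior count. Without control replicate 3, Cyp1a1 rose by log2 4.07 ± 0.0798 (SE, adjusted p = 8.55e-23) and Cyp1b1 by 1.54 ± 0.198 (SE, adjusted p = 3.66e-05), beside 0.574% of genes called higher. DESeq2's Wald test called Cyp1a1 and Cyp1b1, and Cyp1a2 with the same limit of the filter, with 0.436% of genes called in either direction (adjusted p = 0.00502 for Cyp1a2 and 3.25e-09 for Cyp1b1). The call of Cyp1b1 was lost without control replicate 1 (adjusted p = 0.0524), without control replicate 2 (0.0663), without tryptamine replicate 1 (0.0638), and without FICZ replicates 1, 2 and 3 (0.16, 0.134 and 0.108), while its log2 change stayed between 1.54 and 1.86.

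Tryptamine was compared with the same control libraries to see what the proposed proligand did in the same time. Cyp1a1 rose 11.9-fold, with a 95% interval of 10.2 to 13.8, and was the only gene of 12372 that passed, which is 0.00808% of them. Its log2 change was 3.57 ± 0.0992 (SE, adjusted p = 1.66e-08). Cyp1b1 was higher in 3 of 3 tryptamine libraries and its fitted change was 2.73-fold, with an interval of 1.9 to 3.91, but it did not pass (log2 1.45 ± 0.235, SE, adjusted p = 0.242). Cyp1a2 had a total of 51 counts with tryptamine against 1 count in control (adjusted p = 0.708), a depth-scaled ratio of 48.5 with a 95% counting interval of 8.33 to 1950. Cyp1a1 and Cyp1b1 had no overlap between the groups, as did 5.19% of the genes tested. Those of Cyp1a2 did not overlap either, but it met the filter only through treated libraries, so this adds no separate support.

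Without control replicate 3, Cyp1a1 rose by log2 3.56 ± 0.0781 (SE, adjusted p = 1.45e-21) and Cyp1b1 by 1.24 ± 0.20 (SE, adjusted p = 0.00297) with tryptamine, beside 0.183% of genes called higher. Cyp1a2 was then set against control libraries with 0 counts, after a filter it met through treated libraries alone, and its adjusted p of 0.0355 adds no support of its own. With all 9 libraries DESeq2 called Cyp1a1 and Cyp1b1, and Cyp1a2 with that limit, beside 0.097% of genes (adjusted p = 3e-05 for Cyp1b1 and 0.0382 for Cyp1a2). By unadjusted p the members ranked 1, 4 and 6 of 12372 genes with all 9 libraries in the order Cyp1a1, Cyp1b1 and Cyp1a2. With FICZ the corresponding ranks were 1, 8 and 24. Without control replicate 3 they were 1, 6 and 17 of 12539 genes with tryptamine and 1, 13 and 50 with FICZ. The ranks of Cyp1a2 come after the filter it met through treated libraries alone and add no separate support. FICZ and tryptamine share their control libraries, so the 2 sets of changes are not independent of each other.

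**Figure D2:**
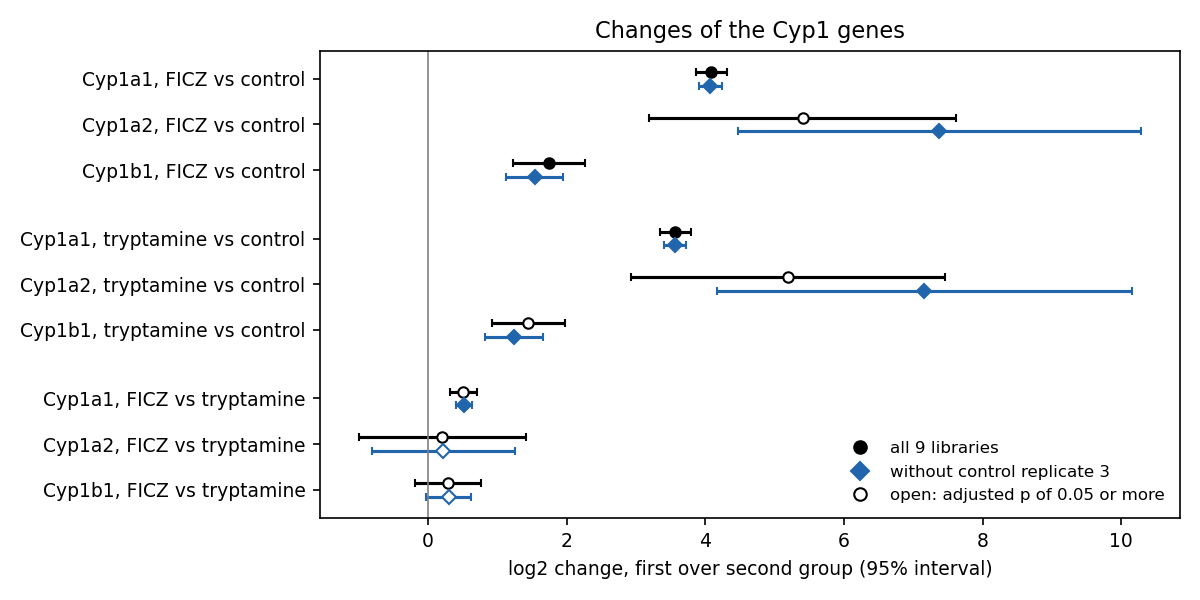
Log2 change of each Cyp1 gene in each comparison (horizontal axis, first over second group) with its 95% interval from edgeR, for all 9 libraries (circles) and without control replicate 3 (diamonds); filled symbols have an adjusted p under 0.05. Against control, Cyp1a1 stays near 4.08 with FICZ and 3.57 with tryptamine under either choice, and Cyp1b1 is lower without that library. The fitted values of Cyp1a2 against control depend on the prior count.

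FICZ and tryptamine were set against each other at unequal doses, 10 nM and 50 uM. Cyp1a1 was at 951.1 to 1035 CPM with FICZ and at 674.3 to 753.8 CPM with tryptamine, with no overlap, and so were 5.46% of the genes tested with FICZ higher. The fitted ratio of FICZ to tryptamine was 1.43, with a 95% interval of 1.24 to 1.63. With all 9 libraries it did not pass in edgeR (log2 0.51 ± 0.0892, SE, adjusted p = 0.696), and neither did any other gene (0 of 12372, or 0.0%, with 213, or 1.72%, at an unadjusted p under 0.05, and 10, or 0.0808%, called by DESeq2). It passed without control replicate 3 (log2 0.52 ± 0.0576, SE, adjusted p = 1.09e-05), where 1 of 3 members was higher beside 0.12% of genes, in edgeR's fit to the 6 treated libraries alone (adjusted p = 1.7e-05) and with DESeq2 (adjusted p = 0.000628). Of all genes tested, Cyp1a1 had the smallest unadjusted p of edgeR in this comparison with all 9 libraries. Without control replicate 3 it ranked 3 of 12539 by p. By log2 change it ranked 230 with all 9 libraries and 265 without that library.

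For Cyp1b1 and Cyp1a2 no difference between FICZ and tryptamine was detectable. The Cyp1b1 level in tryptamine replicate 3, 14.78 CPM, exceeded that of FICZ replicates 2 and 3, and the fitted ratio of FICZ to tryptamine was 1.23 with a 95% interval of 0.88 to 1.71 (edgeR adjusted p = 1). The interval for Cyp1a2 was 0.504 to 2.66 (edgeR adjusted p = 1), and its sign turned when FICZ replicate 1 (log2 -0.30) or tryptamine replicate 3 (log2 -0.13) was left out. These intervals still hold the ratio of 1.43 found for Cyp1a1.

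Because a ratio of 2 genes within a library does not depend on how libraries are scaled, the balance of the members was also compared. Per 1000 counts of Cyp1a1, Cyp1b1 had 14.8, 13.9 and 14.7 counts with FICZ, 16.8, 13.5 and 19.6 counts with tryptamine, and 78.4, 89.4 and 49.8 counts in control. Every treated library lay below every control library. The mean log2 ratio differed from control by -2.29 with FICZ, at -6.11 ± 0.052 against -3.82 ± 0.437 (SD, n = 3 each), and with tryptamine the difference was -2.11, at -5.92 ± 0.27 (SD, n = 3). For the log2 ratios 0.5 was added to each count. Exact two-sided permutation tests over libraries gave p = 0.1 for each, the smallest that 3 against 3 can give. With control replicate 3 left out the differences were -2.54 and -2.35, and over all fits without 1 library they lay between -2.54 and -1.94.

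The ratio of Cyp1a2 to Cyp1a1 showed no such order. Per 1000 counts of Cyp1a1, Cyp1a2 had 2.23, 1.15 and 0.791 counts with FICZ and 1.71, 2.83 and 0.77 counts with tryptamine, against 0, 0 and 1.46 counts in control. The control values rest on 1 count, and the exact permutation p was 0.5 for FICZ and 0.3 for tryptamine (n = 3 each). These tests used log2 ratios with 0.5 added to each count. The control libraries at 0 thus entered at -10.883 and -10.654, values that rest on that addition. The 2 genes also share sequence. The longest identical run between the main GENCODE transcripts of Cyp1a2 (1940 nt) and Cyp1a1 (2621 nt) was 137 bases, and 7.09% of the 36-base windows of the Cyp1a2 transcript also occurred in that of Cyp1a1, or 4.97% of its 50-base windows. The labels and file headers state neither the read length nor the rule for reads with several matches. How shared reads were assigned was not tested. The shares above are of Cyp1a2 windows and set no bound on the error in its counts. In treated libraries Cyp1a1 had 8823 counts or more, against 32 or fewer for Cyp1a2. What part of the Cyp1a2 counts came from Cyp1a1 reads was not tested. Between the Cyp1b1 transcript and that of Cyp1a1 or Cyp1a2 the longest identical run was 13 bases.

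**Figure D3:**
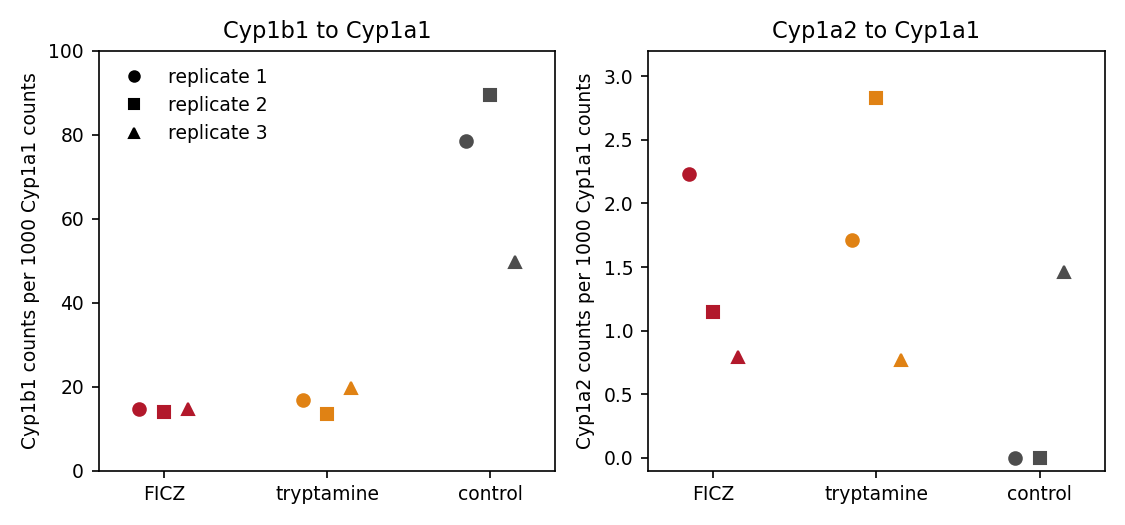
Counts of Cyp1b1 (left) and of Cyp1a2 (right) per 1000 counts of Cyp1a1 in each library, by group (linear axes; symbols mark the replicate number). For Cyp1b1 the treated libraries lie at 13.5 to 19.6 and the control libraries at 49.8 to 89.4, whereas for Cyp1a2 the groups overlap.

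The single transcript rows of each gene are not independent, since a read appears to be counted for every row it overlaps. Cyp1a1 had 4 rows. NM_009992 and AK005000, both of 2697 nt, held identical counts in all 9 libraries, and ENSPTRT00000013444, of 2287 nt, held 80.297 to 86.384% of the counts of NM_001136059. In the GENCODE annotation of GRCm38, the transcript with the length and exon number of NM_009992 starts 9685 bases upstream of the main transcript and shares 2531 bases with it. Although NM_009992 is the longer of the RefSeq rows, it held 95.588 to 96.282% of the counts of NM_001136059 in treated libraries and 94.703 to 98.097% in control. Relative to control, the 4 rows changed alike, with log2 ratios of mean CPM of 4.05 to 4.08 with FICZ and 3.55 to 3.57 with tryptamine.

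Cyp1b1 had 6 rows, and they did not behave alike in the control libraries. AK139368, of 3398 nt, has the length and the 4 exons of a second GENCODE transcript of Cyp1b1, which shares 3319 bases with the 5128-nt transcript. This row stood at 10.3, 9.71 and 8.89 CPM with FICZ, 6.05, 6.49 and 8.91 CPM with tryptamine, and 2.44, 2.34 and 2.3 CPM in control. Its control libraries were nearly level, and control replicate 3 was not low. By contrast AK041078, of 1867 nt, stood at 5.98, 4.7 and 4.99 CPM with FICZ, 4.22, 4.02 and 5.29 CPM with tryptamine, and 2.23, 2.75 and 0.768 CPM in control, with control replicate 3 far below the others. AK137461 (3217 nt), AK017127 (1555 nt) and AK016699 (1436 nt) were likewise lowest in control replicate 3.

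The size of the Cyp1b1 change differed with the row and with that library. For AK139368 the log2 ratio of mean CPM to control was 2.03 with FICZ and 1.6 with tryptamine, and 2.01 and 1.58 without control replicate 3. For AK041078 it was 1.45 with FICZ and 1.23 with tryptamine, and 1.07 and 0.86 without that library. AK139368 held 63.725 to 68.075% of the counts of NM_009994 with FICZ and 53.293 to 70.588% with tryptamine, against 48.649, 47.222 and 79.412% in the 3 control libraries. The level of NM_009994 in control replicate 3 was lower than the mean of the other controls by a log2 difference of -0.69. Over 1301 genes with transcripts of 4500 to 5800 nt the median difference of that library was -0.45, with quartiles of -0.68 and -0.20. For Cyp1a1 it was -0.03, beside a median of 0.11 over 2802 genes of 2000 to 3000 nt. What part transcript length had in the Cyp1b1 value was not tested.

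**Figure D4:**
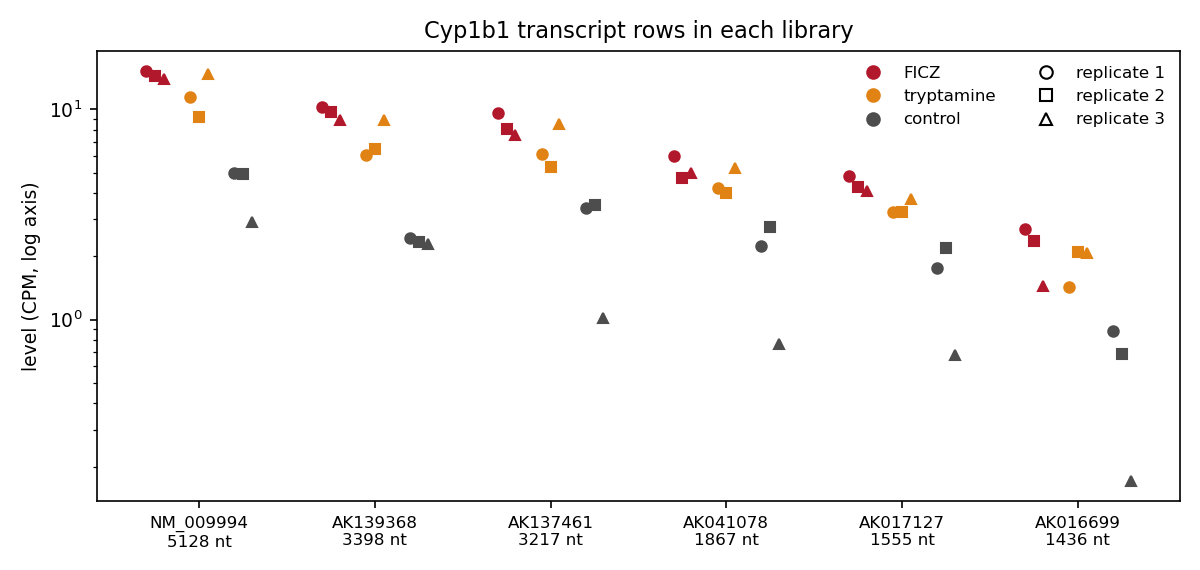
Level of each of the 6 Cyp1b1 transcript rows in CPM (vertical log axis) in the 9 libraries, with colours for the groups and symbols for the replicate number; rows are named by accession and length and overlap one another. Control replicate 3 (dark triangles) lies level with the other controls in AK139368, at 2.3 CPM, and below them in the other 5 rows.

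The authors' deposited tables give a test for each row. At their adjusted p under 0.05, 4 of 4 Cyp1a1 rows, 6 of 6 Cyp1b1 rows and 1 of 2 Cyp1a2 rows passed for FICZ against control, where 5.61% of all rows did. For tryptamine against control, 4 of 4, 3 of 6 and 1 of 2 rows passed, beside 1.45% of all rows in the authors' deposited table. For FICZ against tryptamine it was 4 of 4 Cyp1a1 rows and 0 of the 8 others, beside 0.0793%. The second Cyp1a2 row, ENSGALT00000002012 of 509 nt, had 2 counts in FICZ replicate 3 and 0 in every other library. In the authors' deposited lists of higher genes, which hold 77 genes for FICZ and 20 for tryptamine, Cyp1a2 ranked 1 in both by mean log2 change, at 5.467 and 5.257, and Cyp1a1 ranked 5 and 2, at 4.017 and 3.505. Cyp1b1 ranked 18 and 9 in the same deposited lists, at 1.692 and 1.423.

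The family was then read beside other genes of the pathway. Of 12 AhR target genes outside the Cyp1 family, 7 were tested, and with FICZ 4 rose and 0 fell, beside 0.113% of all genes tested. Their median log2 change was 0.87, against -0.01 over all genes tested. The 4 were Xdh, xanthine dehydrogenase (log2 2.17 ± 0.233, SE, edgeR adjusted p = 0.00539, and log2 1.89 without control replicate 3), Nqo1, a quinone reductase (1.31 ± 0.174, 0.0224), Cyp2s1, another cytochrome P450 (0.95 ± 0.132, 0.0238), and Tiparp, an ADP-ribosyltransferase that curbs the AhR (0.74 ± 0.111, 0.0388). Each of these fitted changes was smaller than that of Cyp1a1, and that of Xdh was larger than that of Cyp1b1. With tryptamine 0 of the 7 passed with all 9 libraries, at a median of 0.37 against 0.0 over all genes, while 5 had an unadjusted p under 0.05 in edgeR, beside 5.15% of all genes, and DESeq2 called 2, beside 0.097%. Without control replicate 3, where 0.805% of genes were called in either direction with FICZ and 0.199% with tryptamine, 6 rose with FICZ and 3 with tryptamine (Xdh, Nqo1 and Aldh3a1, an aldehyde dehydrogenase). Between FICZ and tryptamine 0 of the 7 passed with all 9 libraries. Without control replicate 3, 3 of the 7 were higher with FICZ and 0 lower, beside 0.136% of genes called in either direction. These were Xdh (log2 1.04), Aldh3a1 (0.65) and Cyp2s1 (0.59), each a larger change than the 0.52 of Cyp1a1. Ahrr, the AhR repressor, was not tested, with 1 count in 1 control library and 0 in the other 8 libraries.

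Of 8 genes read for the receptor complex, 7 were tested and 0 passed in edgeR or DESeq2 in any comparison, with 0 at an unadjusted p under 0.05 with all 9 libraries and 2 for FICZ against control without control replicate 3. With all 9 libraries the medians were 0.05 with FICZ and 0.11 with tryptamine. Ahr stood at 20.4 ± 1.87 CPM with FICZ, 23.5 ± 1.72 with tryptamine and 22.8 ± 4.3 in control, and Arnt, its partner, at 67.2 ± 5.26, 64.9 ± 6.59 and 59.5 ± 10.1 CPM in the same groups (SD, n = 3 each). In edgeR's fit with all 9 libraries the lowest adjusted p of Ahr was 0.669 and that of Arnt 0.637.

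A CYP1 enzyme needs heme and electrons, so the 14 genes listed for these were read as well. With FICZ 1 of 14 rose, beside 0.113% of all genes, and it was Cpox, coproporphyrinogen oxidase of heme synthesis, at 252 ± 16.4 CPM against 126 ± 20.7 CPM in control (SD, n = 3 each; log2 1.00 ± 0.123, SE, edgeR adjusted p = 0.0147, and log2 0.87 without control replicate 3). The median of the list was -0.01, equal to that of all genes tested. Por, the P450 reductase that passes electrons to CYP1 enzymes, stood at 214 ± 13.8 CPM with FICZ, 166 ± 11.6 with tryptamine and 143 ± 13.1 in control (SD, n = 3 each), with edgeR adjusted p-values of 0.108 for FICZ and 0.741 for tryptamine against control. Without control replicate 3, where 0.805% of genes were called with FICZ in either direction, Por rose with FICZ (log2 0.51 ± 0.0758, SE, adjusted p = 0.000235) as did Cpox, and Alad, an earlier enzyme of heme synthesis, fell (-0.38 ± 0.0628, SE, adjusted p = 0.000823). Between FICZ and tryptamine Cpox and Por were then higher with FICZ and Alad lower, beside 0.136% of genes called in either direction. With tryptamine against control, Cpox rose without control replicate 3 (log2 0.44 ± 0.0705, SE, adjusted p = 0.00297, beside 0.199% of genes called) and did not pass with all 9 libraries (log2 0.57, adjusted p = 0.741). For Alas1, the first and rate-limiting step, the log2 change with all 9 libraries was 0.24 ± 0.156 with FICZ and -0.03 ± 0.157 with tryptamine, and without control replicate 3 it was 0.39 ± 0.145 and 0.12 ± 0.146 (SE), and none of these passed in edgeR.

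**Figure D5:**
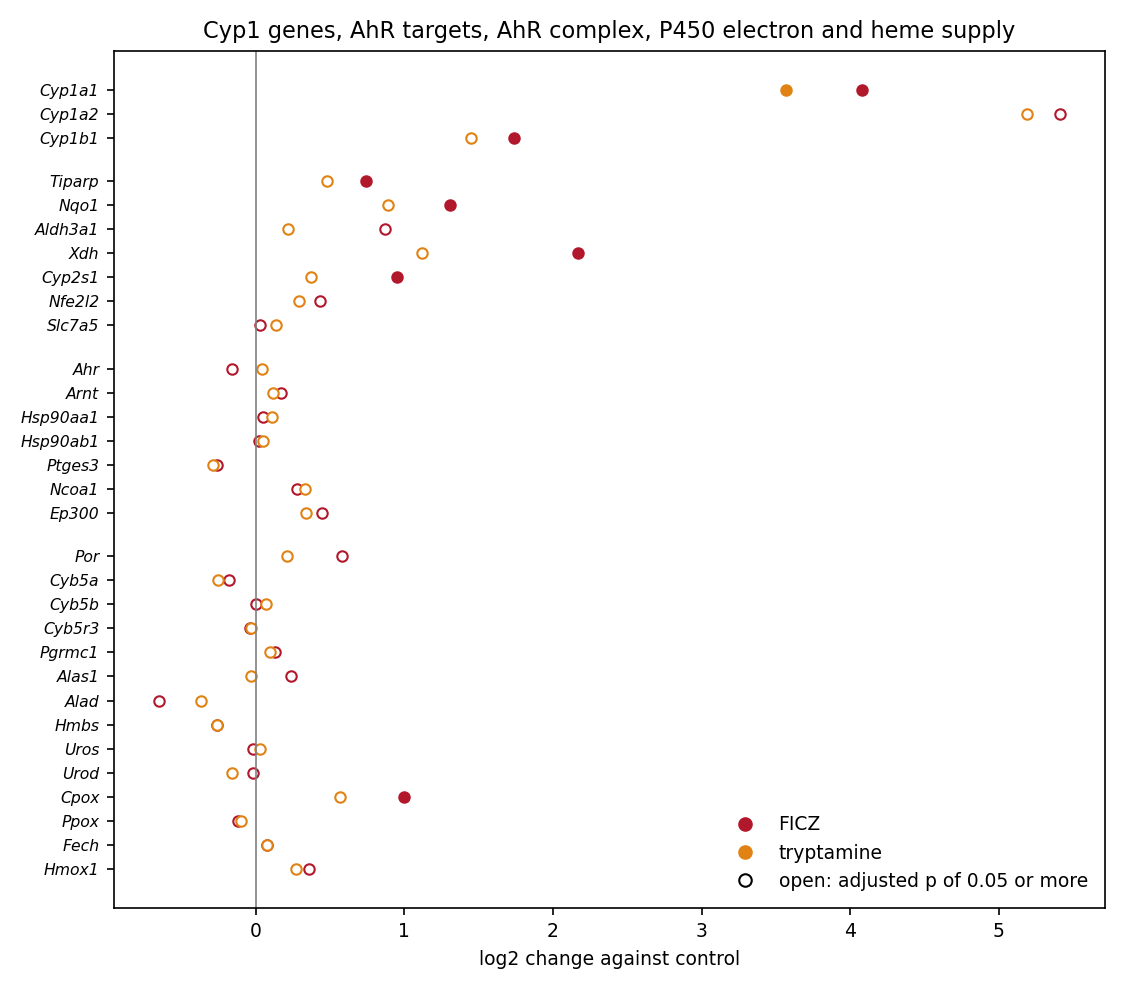
Log2 change against control (horizontal axis) with FICZ and with tryptamine for the 3 Cyp1 genes and for the tested members of 3 lists, from top to bottom AhR targets outside the family, the AhR complex, and P450 electron and heme supply; filled points have an edgeR adjusted p under 0.05 with all 9 libraries. Filled points are Cyp1a1 in both comparisons and, with FICZ, Cyp1b1, Tiparp, Nqo1, Xdh, Cyp2s1 and Cpox.

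Genes with the pattern most like each member were found by the root mean square difference, over the 9 libraries, of log2(CPM + 0.5) from the control mean, among 11725 other genes with a mean of at least 1 CPM. No gene was close to Cyp1a1 by this measure, which also weighs the size of a change, and Cyp1a2 was below the CPM limit for comparison. The nearest to Cyp1a1 were Xdh at 1.76, Cyp1b1 at 1.89 and Slc2a6, a hexose transporter, at 1.9 log2 units. Slc2a6 was at 0.465 CPM in control, where the added 0.5 CPM compresses its change. For Cyp1b1 the nearest were 9130024F11Rik at 0.302, 1700038P13Rik at 0.367 and Tnxb, which encodes the matrix protein tenascin-X, at 0.374. In control 9130024F11Rik was at 0.785 CPM and 1700038P13Rik at 0.993 CPM, where the added 0.5 CPM also compresses the change. Mean levels of Tnxb were 210 CPM with FICZ and 170 CPM with tryptamine, against 89.3 CPM in control. For Cyp1a2, compared with 11726 genes, they were Arhgap10, a GTPase-activating protein, at 0.395, Cyp1b1 at 0.578 and Xdh at 0.618. At the level of Cyp1a2 the pseudocount of 0.5 CPM compresses the change, so this likeness is to the compressed pattern. The same holds for Arhgap10, at 0.881 CPM in control. All of these values come from the same 9 libraries.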

How the data were processed

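RNA-seq tables for mouse hepatoma cells (3 FICZ, 3 tryptamine and 3 control libraries) were used. Per the file headers, the deposited tables hold counts of reads per transcript for each library, p-values (raw and adjusted) and log2 fold changes from the authors' own tests. They also hold a normalised expression signal made by the authors, whose exact rule is not given and which is not printed. The submitters' processing notes name DESeq. Not given in the sources used here: aligner, counting rule, genome build, read length. Columns repeated between tables were identical in 9 of 9 comparisons.

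Reads appear to be counted for every transcript they overlap, with sums over transcripts 5.371 to 5.619 times the totals used here, so the row with the highest mean count stands for each gene. Left out were 26853 rows, which had no gene ID or named several loci that no RefSeq identifier resolved. edgeR 4.0.16 under R 4.3.3 fitted all 9 libraries with TMM scaling, filterByExpr (12372 genes kept), a term for group alone and the quasi-likelihood test. The fit was also run on counts simulated from its own estimates of spread. These held no library shifted with transcript length, so that run does not test the effect of control replicate 3. CPM are counts scaled to the effective library size. Alternatives were other size factors, DESeq2 1.42.0, no filter, summed rows, a fit to 6 libraries, a replicate block and leaving out each library. Members, lists and tests were chosen with earlier results of these data known. Named genes are the 3 members, list members that passed, Ahr, Arnt and Por, and the 3 genes nearest each member in pattern. Alas1, Alad, Ahrr and Aldh3a1 were named from the lists after their values were seen. One listed gene of the receptor complex is not reported here. Sequences come from RefSeq (GRCm38.p6) and GENCODE M21. The libraries' depth sets the limit: 3 counts equal 0.179 to 0.256 CPM.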

Additional observations from a re-analysis of the deposited data

How the results depend on the processing

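Among the 3 members the direction of each change was kept under all alternatives run, except that of Cyp1a2 between FICZ and tryptamine, which was -0.30 without FICZ replicate 1 and -0.13 without tryptamine replicate 3 (range without 1 library -0.30 to 0.69, log2). The rise of Cyp1a1 passed in 15 of 15 alternatives with each treatment. Against control with FICZ, 14 genes passed in the fit to all 9 libraries, 54 with DESeq2, 26 without a filter, 4 with summed rows, 2 in the fit to 6 libraries, 4 with the replicate block, and 4 to 101 without 1 library (101 without control replicate 3). With tryptamine 1 gene passed, and 12 with DESeq2, 2 without a filter, 2 with summed rows and 1 to 25 without 1 library. Between FICZ and tryptamine 0 passed, and 10 with DESeq2, 17 in the fit to 6 libraries and 0 to 17 without 1 library. The log2 change of Cyp1b1 with FICZ lost its call with summed rows (1.72), in the fit to 6 libraries (1.74) and with the replicate block (1.74, adjusted p = 0.115), and lay between 1.54 and 1.86 without 1 library. With tryptamine it passed with DESeq2 (1.45), without a filter (1.44) and without control replicate 3, and ranged from 1.24 to 1.60. Cyp1a2 passed with FICZ under DESeq2 (5.74), without a filter (5.41) and without control replicate 3 (range without 1 library 4.89 to 7.37), and with tryptamine under DESeq2 (5.52) and without control replicate 3 (range 4.69 to 7.16). It was not kept in the fit to the 6 tryptamine and control libraries. Where the filter was used, Cyp1a2 met it through treated libraries alone. Its calls under DESeq2 and without control replicate 3 thus add no separate support. Leaving out that library also removed its only control count. Cyp1a1 between FICZ and tryptamine passed with DESeq2 (0.52), in the fit to 6 libraries (0.52) and without control replicate 3 (range 0.48 to 0.57). The cause of these shifts was not tested. Deviations of same-numbered libraries had correlations across genes of -0.07 to 0.149, against -0.16 to 0.126 for other pairs. Between FICZ and tryptamine the same-numbered pairs gave 0.052 to 0.149. Groups this small cannot settle whether the numbers pair the libraries, so the block is only an alternative. Depth limits Cyp1a2 most, with 1 count in all control libraries.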

Other observations

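In the authors' deposited table for FICZ against control, the Cyp1a1 rows NM_001136059 and NM_009992 have nearly equal log2 fold changes, 4.03 and 4.02, but adjusted p-values of 8.51e-254 and 1.54e-127. For tryptamine against control the authors' deposited table gives 3.51 for both rows and adjusted p-values of 2.48e-127 and 1.07e-138, the other way round.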
